A study of Mus musculus with 10 samples.

Results

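The 10 genes described here are immediate early genes, matched by symbol in the deposited table: Fos, Fosb, Jun, Junb, Egr1, Ier2, Ier3, Dusp1, Zfp36 and Btg2. Each symbol was found once, so 10 of 47702 genes are described. The samples were livers of female mice labelled as knockouts of Etnppl (KO, 5 libraries) and of wild-type females (WT, 5 libraries). Both genotypes ate chow for 20 weeks, and the livers were snap frozen before poly-A RNA was sequenced. The sources used here do not give age, strain, targeted exons, the tissues without Etnppl, feeding state, time of day or order of harvest. Nothing in the labels ties each library to its own animal, and p-values then cover only the spread among the libraries.

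Immediate early genes are transcribed within minutes of a stimulus, because the factors that switch them on already sit in the cell and need only be modified. Growth factors and mitogens act through kinase cascades on serum response factor and its partners, while glucagon and adrenaline act through cyclic AMP on CREB. Several of the products are transcription factors, and others shut the response down again by removing phosphate from kinases or by marking messenger RNA for decay. Their transcripts are short-lived. In liver they are known to respond to partial hepatectomy, feeding, injury, and to handling and dissection of the tissue.

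The targeted gene was lower in KO. Etnppl averaged 22.1 ± 3.92 FPKM in KO and 65.8 ± 26.0 FPKM in WT (SD, n = 5 each; exact two-sided permutation test, p = 0.0079, the smallest that 252 arrangements allow), so KO transcript was reduced and not absent. FPKM is the number of fragments scaled to transcript length and to library size. From the steps between the lowest values, the libraries held about 20550000 to 25700000 counted fragments in KO and 22900000 to 26000000 in WT. Of 6 hepatocyte markers none was at 0, and their summed level was 59484 to 65235 FPKM in KO and 54996 to 60153 FPKM in WT. WT 3 held the highest Etnppl of the WT libraries, 108.39 FPKM.

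Promoter sequence of 8 of the 10 genes was matched by symbol in RefSeq (GRCm38.p6, the assembly of mm10). Egr1 and Ier2 had no matched promoter and were not searched, so nothing is said of their elements. The 250 bases before each start were searched on both strands for the CArG box, the element that serum response factor binds, and for the core TGACGT of the cyclic AMP response element, which overlaps its full form TGACGTCA. A CArG box was found in Zfp36 alone among the 8, and in 1.47% of all 32851 promoters in the table. The core TGACGT was found in Btg2, Dusp1 and Fos, and in 6.47% of all promoters. Its full form was found in Btg2 and Dusp1, and in 1.55% of all promoters. TGANTCA and GCGNGGGCG, where N is any base, were searched too. GCGNGGGCG was found in Btg2, Fosb and Zfp36, and in 4.7% of all promoters. TGANTCA was found in none of the 8, and in 6.75% of all promoters. The stretches around the matches of the CArG box and of TGACGT, core or full form, are shown. Only these matched letters are in capitals.
Zfp36: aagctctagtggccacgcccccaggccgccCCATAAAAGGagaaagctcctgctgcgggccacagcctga
Dusp1: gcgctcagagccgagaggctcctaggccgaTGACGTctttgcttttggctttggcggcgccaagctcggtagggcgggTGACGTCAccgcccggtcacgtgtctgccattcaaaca
Btg2: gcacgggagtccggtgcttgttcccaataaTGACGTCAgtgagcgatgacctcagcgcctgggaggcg
Fos: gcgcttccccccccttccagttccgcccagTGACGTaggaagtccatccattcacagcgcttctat

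The Zfp36 stretch lies at chr7:28379247-28379316 on the minus strand, the Dusp1 stretch at chr17:26508578-26508693 on the minus strand, the Btg2 stretch at chr1:134079284-134079351 on the minus strand and the Fos stretch at chr12:85473794-85473859 on the plus strand. The CArG box of Zfp36 ended 49 bases before the RefSeq start. The full element ended 136 bases before it in Dusp1 and 159 bases before it in Btg2, and the core in Fos ended 61 bases before it. Such a match is a description of letters and not of binding, and the absence of one covers this window only. The gene spans given below are from GENCODE and cover all transcripts of a gene. Their starts can differ from the RefSeq starts, and the Dusp1 and Zfp36 stretches lie inside the spans of these genes.

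Levels differed widely between the 10 genes. Over all 10 libraries Zfp36 averaged 52.6 FPKM, Egr1 28.1, Dusp1 25.2, Ier2 15.8, Jun 11.0, Junb 8.27, Btg2 5.04, Fos 1.24, Ier3 1.03 and Fosb 0.183 FPKM. The ranges of all neighbours in this order overlapped. Within each library, Dusp1 was above Ier2, Ier2 above Jun, Btg2 above Fos, and Ier3 above Fosb in 10 of 10 libraries. Egr1 was above Dusp1 in 3 of 10 and Fos above Ier3 in 6 of 10, so neither pair has a fixed order. Of the 10 genes, 9 averaged 0.5 FPKM or more and entered the fit across genes, and Fosb did not.

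**Figure D1:**
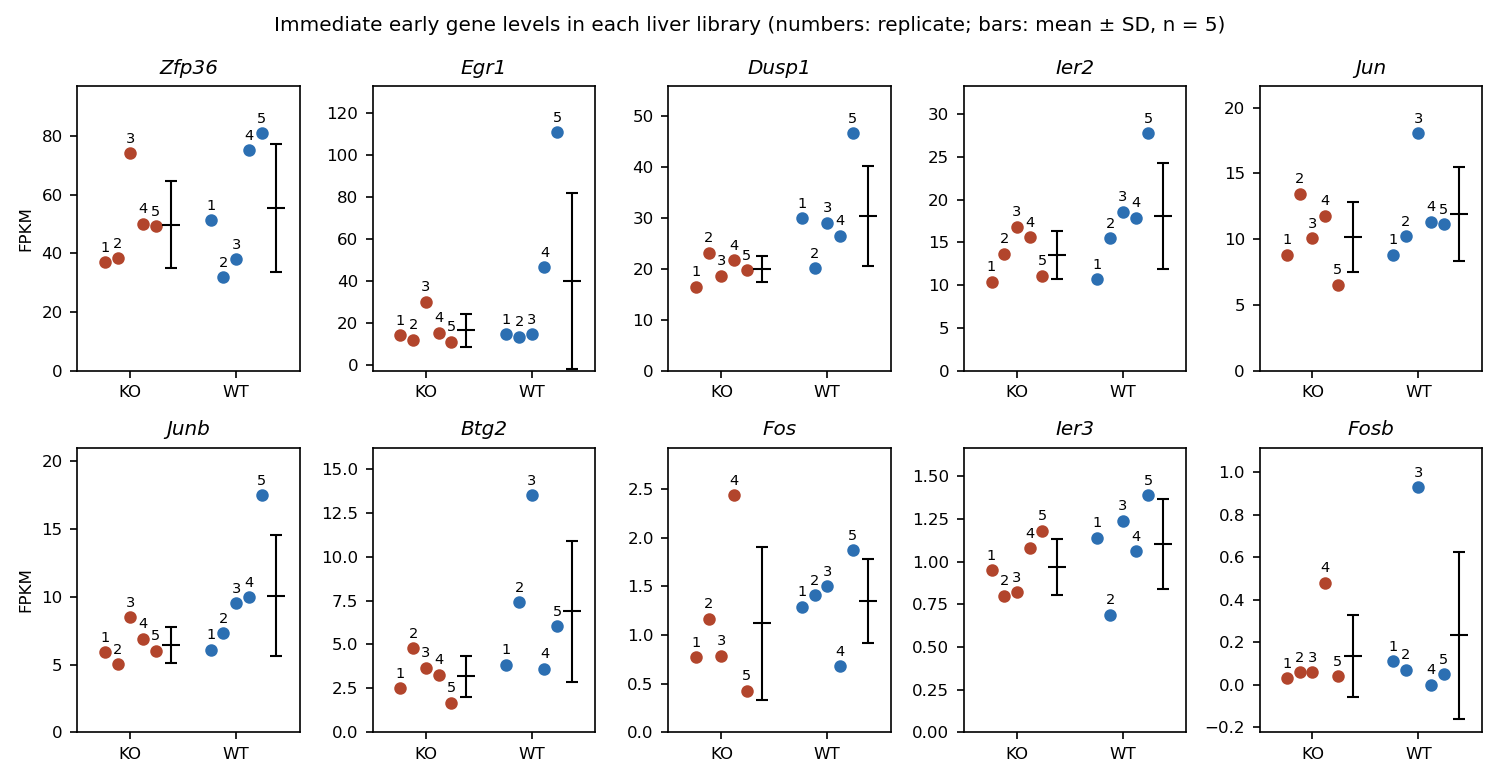
FPKM of the 10 immediate early genes (panels, in order of mean level) in the 5 KO and 5 WT libraries, with replicate numbers beside the points and mean ± SD at the side. Every panel overlaps between genotypes, WT 5 is the highest WT library in 7 panels, and WT 3 is the highest in the other 3 (Jun, Btg2 and Fosb).

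The AP-1 transcription factor is a dimer of a Fos and a Jun protein. Fos (chromosome 12, 85473890 to 85477273, plus strand, GRCm38) was low, at 0.77, 1.17, 0.79, 2.44 and 0.43 FPKM in KO 1 to KO 5, against 1.29, 1.41, 1.5, 0.68 and 1.87 FPKM in WT 1 to WT 5. The highest library, KO 4, and the lowest, KO 5, were both KO, and the groups overlapped. At these depths the Fos values stand for about 17 to 96 fragments in KO and 29 to 80 fragments in WT. Fosb (chromosome 7, 19302696 to 19310051, minus strand), the paralog of Fos, was at 0.03, 0.06, 0.06, 0.48 and 0.04 FPKM in KO and at 0.11, 0.07, 0.93, 0 and 0.05 FPKM in WT. It stood out in KO 4, with about 36 fragments against 2 to 5 in the other KO libraries, and in WT 3, with about 85 fragments against 0 to 10 in the other WT libraries. Its genotype means, 0.134 ± 0.194 FPKM in KO and 0.232 ± 0.392 FPKM in WT (SD, n = 5 each), gave an exact permutation p of 0.65 (two-sided).

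Jun (chromosome 4, 95049034 to 95052222, minus strand), the founding Jun protein, was at 8.84, 13.47, 10.09, 11.79 and 6.54 FPKM in KO and at 8.84, 10.22, 18.03, 11.33 and 11.15 FPKM in WT. WT 3 was the highest of all and KO 5 the lowest, and the other 8 libraries lay between 8.84 and 13.47 FPKM. Junos overlaps exons of Jun on the opposite strand, at 0 to 0.46 FPKM in KO and 0.09 to 0.56 FPKM in WT. Junb (chromosome 8, 84974484 to 84978718, minus strand), a Jun paralog that can restrain AP-1 activity, was at 5.90, 5.02, 8.50, 6.90 and 6.01 FPKM in KO and at 6.09, 7.33, 9.52, 9.96 and 17.50 FPKM in WT. In this gene 3 WT libraries lay above every KO library, and WT 1 and WT 2 lay among them. Prdx2 overlaps exons of Junb on the opposite strand at 37.63 to 43.81 FPKM in KO and 38.43 to 47.71 FPKM in WT, and, while the kit named in the labels is directional, no strand setting is given for the counting. WT 5, the highest library for Junb, had 41.11 FPKM of Prdx2.

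Egr1 (chromosome 18, 34859823 to 34864984, plus strand) encodes a zinc finger transcription factor with GC-rich target sites. It was at 13.94, 11.77, 30.03, 15.21 and 10.85 FPKM in KO and at 14.37, 13.19, 14.56, 46.51 and 110.74 FPKM in WT. In most libraries Egr1 sat near 10 to 15 FPKM in both genotypes, and it was far higher in WT 5, WT 4 and KO 3. The WT mean of 39.9 ± 42.0 FPKM (SD, n = 5) therefore rests on 2 libraries, while the medians were close, 13.9 FPKM in KO and 14.6 FPKM in WT.

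Ier2 and Ier3 are small immediate early response proteins, and Ier3 is known to affect cell survival. Ier2 (chromosome 8, 84661331 to 84662852, minus strand) was at 10.43, 13.69, 16.83, 15.61 and 11.11 FPKM in KO and at 10.69, 15.48, 18.57, 17.88 and 27.72 FPKM in WT. WT 5 was again the highest, while WT 1 lay at the bottom of the KO range. Ier3 (chromosome 17, 35821684 to 35822923, plus strand) was at 0.95, 0.80, 0.82, 1.08 and 1.18 FPKM in KO and at 1.14, 0.69, 1.24, 1.06 and 1.39 FPKM in WT, about 17 to 22 fragments in KO and 14 to 28 in WT. On the log2 scale its SD within genotype was the smallest of the 9 members tested.

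Zfp36 and Dusp1, which shut the response down, were among the 3 most abundant members. Zfp36 (chromosome 7, 28376784 to 28380253, minus strand) encodes tristetraprolin, which binds AU-rich elements and hastens decay of messenger RNA. Gm44710 overlaps its exons on the opposite strand. Zfp36 was at 37.07, 38.43, 74.08, 50.07 and 49.25 FPKM in KO and at 51.26, 31.98, 37.98, 75.27 and 80.87 FPKM in WT. KO 3, WT 4 and WT 5 lay apart from the other 7 libraries, and these are the libraries that were high for Egr1. Dusp1 (chromosome 17, 26505590 to 26562128, minus strand) encodes a phosphatase that inactivates MAP kinases. It was at 16.49, 23.15, 18.69, 21.68 and 19.76 FPKM in KO and at 29.88, 20.15, 29.06, 26.46 and 46.53 FPKM in WT. Of the WT libraries 4 lay above every KO library, and WT 2 lay among them. Ergic1 overlaps exons of Dusp1 on the opposite strand, at 20.85 to 25.30 FPKM in KO and 20.81 to 25.55 FPKM in WT.

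Btg2 (chromosome 1, 134075170 to 134079120, minus strand) encodes an antiproliferative protein that recruits a deadenylase to messenger RNA. It was at 2.52, 4.80, 3.67, 3.27 and 1.69 FPKM in KO and at 3.86, 7.39, 13.50, 3.62 and 6.03 FPKM in WT. WT 3, WT 2 and WT 5 lay above every KO library, and WT 1 and WT 4 lay within the KO range.

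The genotypes were compared with limma on log2(FPKM + 0.5), a scale that understates differences of low genes, with p-values adjusted over all 12247 tested genes. None of the 9 tested members was called at an adjusted p under 0.05, where 8.54% of all tested genes were. At an unadjusted p under 0.05, 3 of 9 were lower in KO (Dusp1, Btg2 and Junb), where 13.6% of all tested genes were lower at that threshold, and none was higher. In either direction, 24.5% of all tested genes passed that threshold. In none of the 10 genes were the groups of libraries separated, as they were in 8.87% of tested genes. All 9 differences were below 0, as were 54.3% of those of all tested genes, with a median of -0.36 against -0.02 over all tested genes. The 9 are not independent, since many share a highest library. The smallest p was that of Dusp1, which differed by -0.55 on the log2 scale (SE 0.18, limma adjusted p = 0.088), at 20.0 ± 2.59 FPKM in KO and 30.4 ± 9.78 FPKM in WT (SD, n = 5 each). Btg2 had the largest difference in size, -0.91 (SE 0.34, limma adjusted p = 0.13), and Junb was at -0.53 (SE 0.24, limma adjusted p = 0.20).

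The other 6 differences did not pass even an unadjusted threshold of 0.05. Egr1 was at -0.81 with an SE of 0.58, and -0.31 without WT 5. Btg2 was at -0.64 and Jun at -0.06 without WT 3, and Junb at -0.32 and Dusp1 at -0.39 without WT 5. Ier2 was at -0.36 (SE 0.22), Fos at -0.27 (SE 0.28), Jun at -0.22 (SE 0.21), Ier3 at -0.12 (SE 0.14) and Zfp36 at -0.11 (SE 0.28). Without WT 5, Ier2 was at -0.20, Fos at -0.17, Ier3 at -0.06 and Zfp36 at 0.05. Dusp1 passed the threshold in 1 of its 21 alternatives, without WT 2 (log2 difference -0.68, limma adjusted p = 0.031), and its adjusted p ranged up to 0.21 over the alternatives. In bulk liver, fewer cells of a type and less RNA per cell cannot be told apart.

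**Figure D2:**
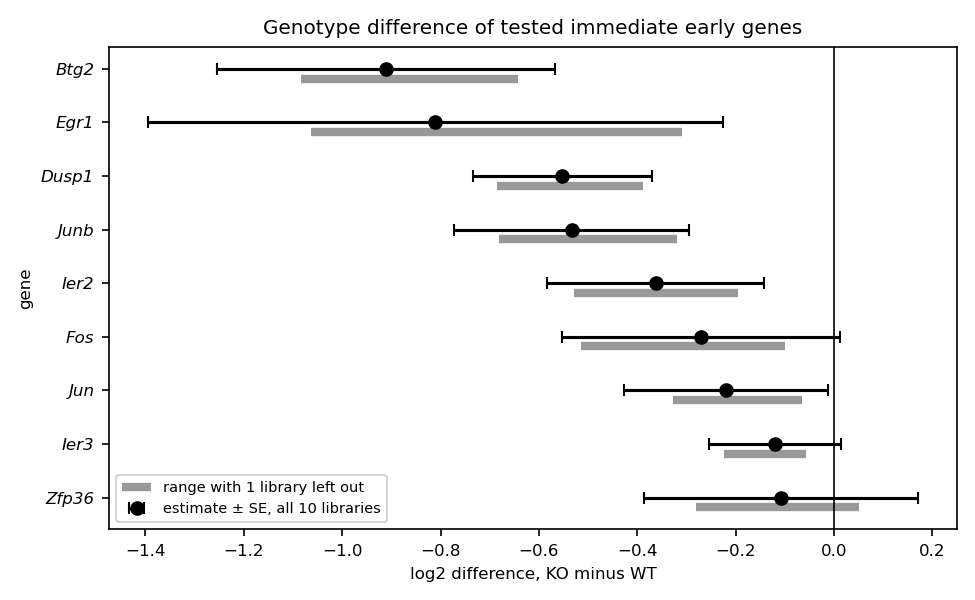
Log2 difference, KO minus WT, of the 9 tested immediate early genes, with SE (black) and the range when each of the 10 libraries was left out in turn (grey). All 9 estimates lie below 0, from -0.91 for Btg2 to -0.11 for Zfp36, and Zfp36 crosses 0 when a library is left out.

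Variation between libraries of the same genotype was large for these genes. The median SD within genotype was 0.43 on the log2 scale over the 9 tested members and 0.16 over all tested genes. Egr1 had an SD of 1.03, above that of 99.5% of tested genes, and Btg2 an SD of 0.61, above 98.1%. Fos (0.51), Zfp36 (0.50), Junb (0.43), Ier2 (0.40) and Jun (0.38) each lay above at least 92.6%, and Dusp1 (0.33) above 89.0%. Ier3 was the exception, with an SD of 0.21, which exceeded that of 69.6% of all tested genes and of 43.8% of the 2683 genes within 2-fold of its level. For each of the other 8, at least 94.0% of the genes within 2-fold of its level had a smaller SD.

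**Figure D3:**
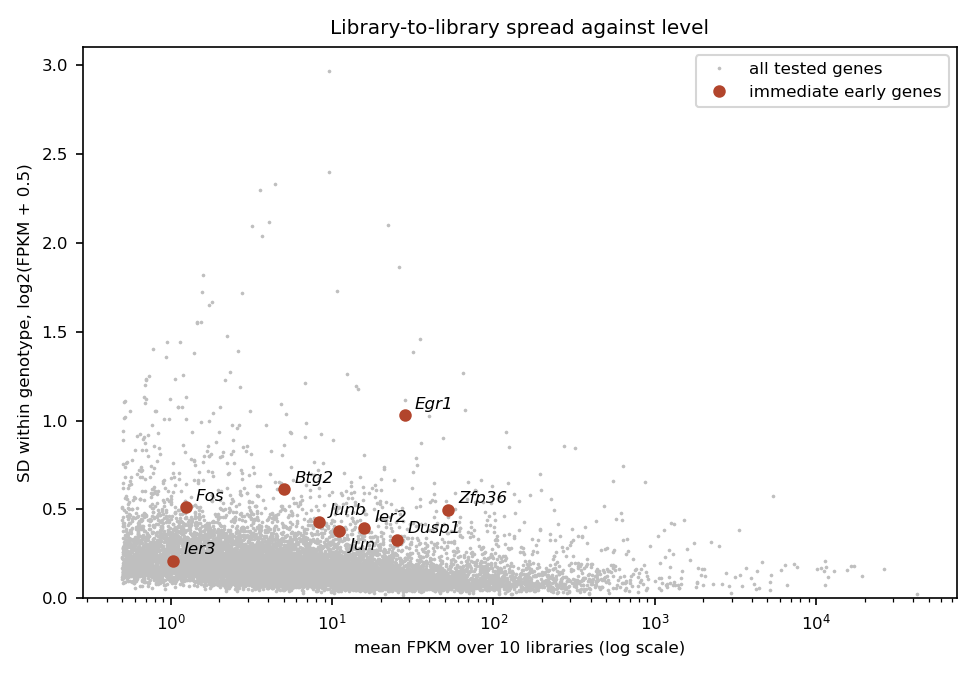
SD within genotype of log2(FPKM + 0.5) against mean FPKM over 10 libraries (log axis) for all 12247 tested genes (grey) and the 9 tested immediate early genes (red). Egr1 at 1.03 lies above 99.5% and Btg2 at 0.61 above 98.1% of tested genes, while Ier3 at 0.21 lies inside the cloud.

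The spread was wider in WT for 7 of the 9, by point estimate, and for 6 to 8 of them when each library was left out in turn, a setting chosen after the data were seen. The share of all tested genes with a wider spread in WT was not counted. Many of the 9 share a highest library, so they are not independent. Egr1 had an SD of 0.57 in KO and 1.34 in WT on the log2 scale, and its highest library was 2.77 times its lowest in KO and 8.40 times in WT. Without WT 5 the WT values were an SD of 0.85 and a ratio of 3.53. Dusp1 had a coefficient of variation of 13.0% in KO and 32.2% in WT, Junb 20.4% in KO and 44.1% in WT, and Btg2 36.9% in KO and 58.4% in WT. Each of these WT values rests on 1 library: without WT 5 it was 16.7% for Dusp1 and 22.2% for Junb, and without WT 3 it was 34.5% for Btg2, below the KO value. Fos went the other way, with 69.9% in KO and 32.1% in WT, but 38.3% in KO without KO 4. Jun had SDs of 0.38 in KO and 0.37 in WT, and 0.16 in WT without WT 3. When absolute deviations from the genotype mean were compared with limma, 0 of the 9 members were called, where 0.0980% of all tested genes were. Egr1 alone was below 0.05 before adjustment (limma adjusted p = 0.40). On simulated data this comparison recovered no gene of unequal spread. Its power was therefore low, the 0 of 9 says little, and a p that misses the threshold does not show equal spread. A form on log2 deviations, chosen after the data were seen, gave Egr1 a limma adjusted p of 0.17 and also called none of the 9.

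Every member was highest in WT 5 or in WT 3 among WT libraries, while 4 KO libraries shared the highest KO values. WT 5 was the highest WT library for Zfp36, Egr1, Dusp1, Ier2, Junb, Fos and Ier3, 7 of the 10 members, where it was the highest WT library for 23.1% of all tested genes. WT 3 was the highest WT library for Jun, Btg2 and Fosb, and for 22.3% of all tested genes. Among KO libraries, KO 3 was the highest for Egr1, Junb, Ier2 and Zfp36, KO 2 for Jun, Btg2 and Dusp1, KO 4 for Fos and Fosb, and KO 5 for Ier3. KO 1 was the highest for none of them. The 2 splits cut across each other: members highest in WT 5 had their highest KO value in KO 2 (Dusp1), KO 3, KO 4 (Fos) or KO 5 (Ier3).

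**Figure D4:**
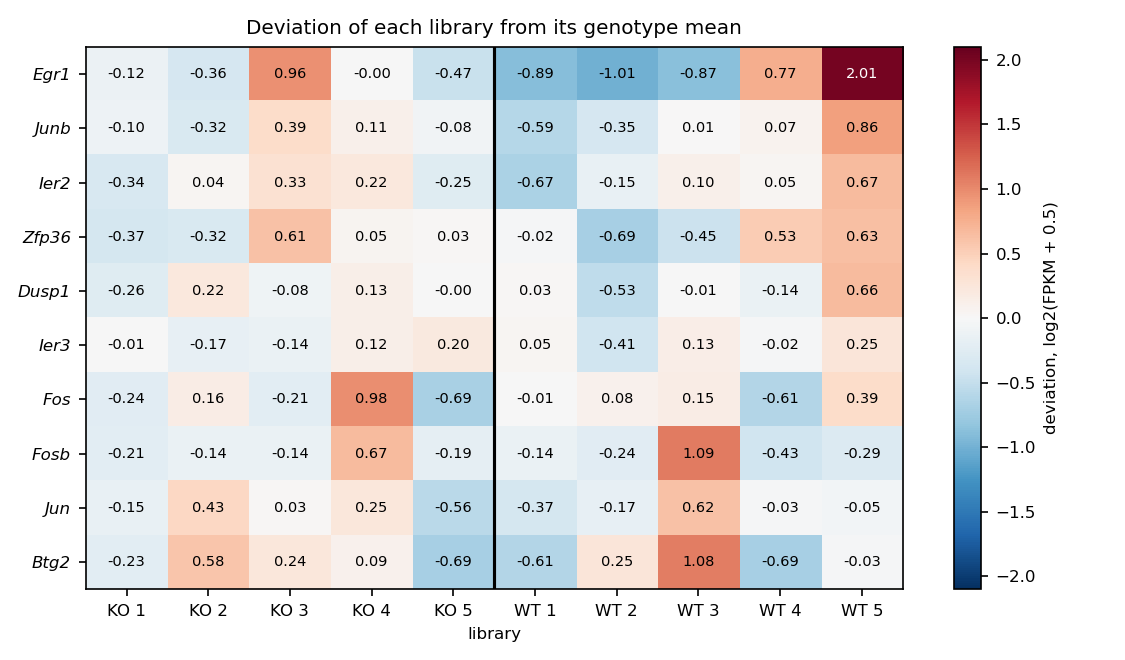
Deviation of each library from its genotype mean, log2(FPKM + 0.5), for the 10 immediate early genes (rows) in KO and WT libraries (columns). WT 5 has the highest deviation for Egr1 (2.01), Junb (0.86) and Ier2 (0.67), and WT 3 for Fosb (1.09), Btg2 (1.08) and Jun (0.62).

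Whether pairs of members moved together was tested on deviations from the genotype mean, over 36 pairs of the 9 tested members and 10 libraries, by exact permutation within genotype (two-sided, smallest possible p 6.94e-05), with Benjamini-Hochberg adjustment over the 36 pairs. Pearson's r was above 0 in 29 pairs and below 0 in 7, with a median of 0.40, and 4 pairs passed 0.05. Egr1 and Junb had r = 0.89 (exact p = 0.0016, adjusted p = 0.046; rho = 0.87, exact p = 0.0021, adjusted p = 0.064), and r = 0.63 without WT 5 and KO 3. In each pair the 2 libraries left out are those farthest from the median of 1 gene of the pair, so they differ between pairs. For these values of r the deviations were not centred again on the kept libraries. An offset between genotypes can therefore enter r, and r after centring again was not computed. Egr1 and Zfp36 had r = 0.86 (exact p = 0.0040, adjusted p = 0.046; rho = 0.85, exact p = 0.0081, adjusted p = 0.098), and r = 0.82 without WT 2 and WT 5, with KO 3, high in both genes, kept. Ier2 and Junb had r = 0.89 (exact p = 0.0051, adjusted p = 0.046; rho = 0.89, exact p = 0.0035, adjusted p = 0.064), and r = 0.65 without WT 1 and WT 5. Jun and Btg2 had r = 0.85 (exact p = 0.0042, adjusted p = 0.046; rho = 0.72, exact p = 0.031, adjusted p = 0.19), and r = 0.67 without KO 5 and WT 3.

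These 4 calls were narrow. No pair passed with Spearman's rho, after any of the 3 scalings, or without any single one of KO 1, KO 3, KO 4 or the 5 WT libraries, while 1 passed without KO 2 and 2 without KO 5. The values of r themselves stayed high without WT 5, at 0.73 for Egr1 and Junb, 0.85 for Egr1 and Zfp36, 0.79 for Ier2 and Junb and 0.85 for Jun and Btg2. Without WT 3 they were 0.95, 0.84, 0.89 and 0.73 in the same order. In both of these settings deviations were taken again from the genotype means of the kept libraries. Egr1 and Btg2 had r = -0.17 and Egr1 and Jun r = 0.00, neither of which passed the test. Fos had r = 0.05 with Egr1 (exact p = 0.86, adjusted p = 0.93; rho = 0.10) and r = 0.52 with Jun (exact p = 0.15, adjusted p = 0.47; rho = 0.55), and neither passed.

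**Figure D5:**
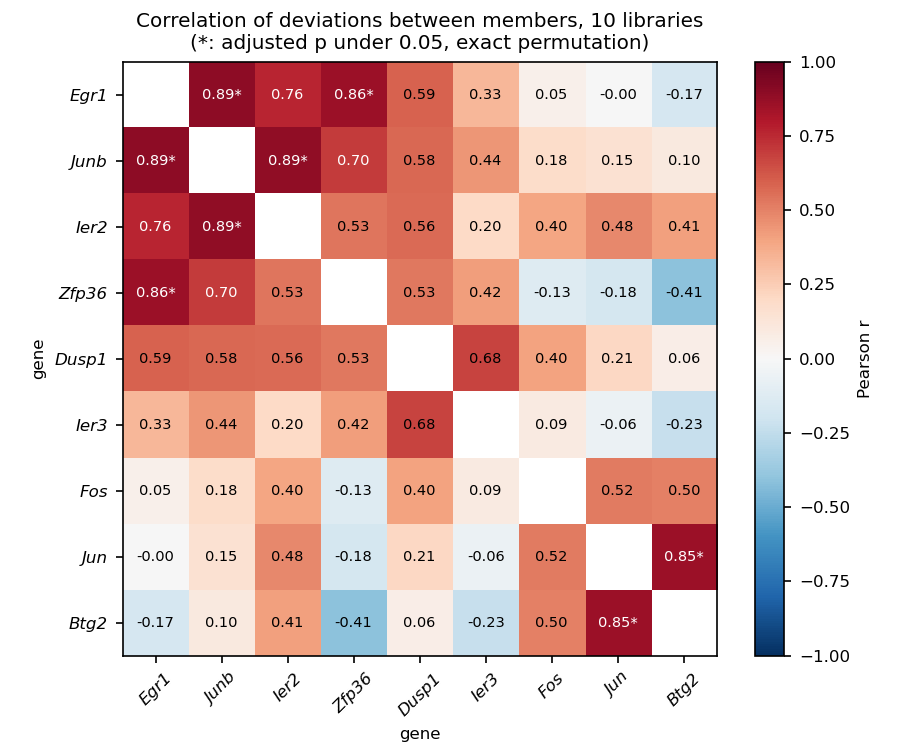
Pearson r of deviations from the genotype mean over 10 libraries, for the 36 pairs of 9 tested immediate early genes, with a star at an adjusted p under 0.05. The starred pairs are Egr1 with Junb (0.89) and Zfp36 (0.86), Ier2 with Junb (0.89) and Jun with Btg2 (0.85). Dusp1 has r from 0.53 to 0.59 with Egr1, Junb, Ier2 and Zfp36, none starred. These values rest on WT 5: without it r was -0.04 with Egr1, -0.11 with Junb, 0.09 with Ier2 and 0.25 with Zfp36.

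Read beside the promoter matches, Btg2 and Dusp1 both held TGACGTCA, and their r was 0.06 (exact p = 0.91, adjusted p = 0.94; rho = 0.04). The core TGACGT is also in Fos, which had r = 0.50 with Btg2 (exact p = 0.12, adjusted p = 0.47; rho = 0.64) and r = 0.40 with Dusp1 (exact p = 0.18, adjusted p = 0.47; rho = 0.60), and none of the 3 pairs passed.

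The 5 tested genes most like the members, by Pearson r with the mean of the 9 members' scaled deviations over 10 libraries, were Taf10 (0.98), Gm7536 (0.94), Bcl7b (0.92), Nt5dc2 (0.92) and Inpp5a (0.91). Taf10, a subunit of the general transcription factor TFIID, was at 71.07, 74.11, 76.16, 75.82 and 72.26 FPKM in KO and 75.08, 75.87, 81.15, 80.20 and 88.31 FPKM in WT. Its order of libraries is like that of the members, but its range is narrow. They were picked from all tested genes for a high r, so the values of r are no test. For Egr1 and Btg2, chosen after their values were seen, the genes most like Egr1 were Tox (0.97), Slc11a2 (0.94) and Spon2 (0.94), and those most like Btg2 were Pcgf5 (0.95), Plekhf2 (0.95) and Hscb (0.93).

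Other immediate early genes were more often highest in WT 3 than in WT 5, by count and without a test. Of 26 listed transcription factors, 20 were tested, and WT 3 was the highest WT library for 12 of them and WT 5 for 3. Of 26 listed signalling and secreted proteins, 22 were tested, with 12 highest in WT 3 and 2 in WT 5. Nr4a1, an orphan nuclear receptor named after its values were seen, was at 5.10, 11.04, 2.68, 6.49 and 1.2 FPKM in KO and 3.34, 11.27, 63.62, 1.07 and 1.46 FPKM in WT. Its high libraries, WT 3, WT 2 and KO 2, are also the highest 2 WT libraries and the highest KO library for Btg2. Among the 13 paralogs of Dusp1, Zfp36 and Btg2, WT 3 was the highest WT library for 7 and WT 5 for 3. Among KO libraries, KO 2 was the highest for 9 of the 20 transcription factors, 9 of the 22 signalling and secreted proteins and 7 of the 13 paralogs, where it was the highest for 18.8% of all tested genes.

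Few genes of these lists differed by genotype, where 8.54% of all tested genes did. Of the 20 transcription factors, Id3, an inhibitor of helix-loop-helix proteins, fell to 14.0 ± 1.68 FPKM in KO, against 23.3 ± 5.73 FPKM in WT (SD, n = 5 each; -0.69 on the log2 scale, SE 0.15, limma adjusted p = 0.019, and 0.061 without WT 3 and WT 5), and 19 did not pass. Id3 had 11.88 to 16.35 FPKM in the KO libraries and 16.82 to 30.09 FPKM in the WT libraries, so the groups did not overlap. Limma called 0 of the 22 signalling and secreted proteins (2 at an unadjusted p under 0.05) and 0 of the 13 paralogs (3 at that threshold), against 24.5% of all tested genes at that threshold. The median log2 difference was -0.20 for the transcription factors and -0.10 for the signalling and secreted proteins.

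Upstream of these genes lie the kinases and factors that act on existing protein. Of 28 tested, Rps6ka1, a kinase downstream of ERK that phosphorylates CREB and serum response factor, fell and 27 did not pass, with a median of -0.01. Rps6ka1 was at 1.21, 1.17, 0.92, 1.31 and 1.02 FPKM in KO and 2.06, 2.52, 2.40, 1.98 and 2.30 FPKM in WT, with every KO library below every WT library (log2 difference -0.76, SE 0.10, limma adjusted p = 0.0018). The call held in all 20 alternatives.

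Lists tied to the state of the animal were read beside the members, and their part in the members' variation was not tested. Of 16 fasting and feeding genes, Igfbp1, an insulin-repressed binding protein for growth factors, was higher at 785 ± 181 FPKM in KO and 361 ± 160 FPKM in WT (SD, n = 5 each; limma adjusted p = 0.020, and 0.10 without WT 3 and WT 5), 15 did not pass, and WT 3 was the highest WT library for 8. Of 9 glucocorticoid targets and 7 inducible heat shock genes, limma called none, with 1 and 3 at an unadjusted p under 0.05 (24.5% of all tested genes) and medians of -0.06 and -0.34. WT 3 was the highest WT library for 5 of the glucocorticoid targets and WT 5 for none, and KO 2 was the highest KO library for 5. Of the 7 heat shock genes, KO 3, which was also high for Egr1, Junb, Ier2 and Zfp36, was the highest KO library for 7, WT 1 the highest WT library for 6, and WT 3 the lowest WT library for 6. Of 13 clock genes, Arntl (8.54 ± 0.900 FPKM in KO and 12.1 ± 1.62 FPKM in WT) and Nfil3 (18.4 ± 5.21 FPKM in KO and 28.9 ± 2.97 FPKM in WT; SD, n = 5 each) were called lower by limma (adjusted p = 0.017 and 0.028), and 11 were not. Arntl lost its call with the replicate block (limma adjusted p = 0.064), and Nfil3 lost its call in 9 of 21 alternatives (limma adjusted p up to 0.14), among them without KO 3, KO 4, KO 5, WT 1, WT 3 or WT 5. WT 3 was the highest WT library for 8 of the clock genes and WT 5 for 3.

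Markers of other liver cells were read in the same way. Of 8 Kupffer cell markers, C1qa, Clec4f, Csf1r and Vsig4 fell and 4 did not pass, where 8.54% of all tested genes were called. Of those 4, Adgre1, Cd5l and Timd4 were lower in KO by point estimate. Marco went the other way, at 12.4 ± 7.71 FPKM in KO and 6.71 ± 2.4 FPKM in WT (SD, n = 5 each; log2 difference 0.75, limma adjusted p = 0.19). The summed level of the 8 markers was 124 to 175 FPKM in KO and 180 to 211 FPKM in WT. Within WT the sum was lowest in WT 5, the library with the highest Egr1. Limma called 0 of 7 markers of sinusoidal endothelium (2 had an unadjusted p below 0.05), with sums of 149 to 163 FPKM in KO and 157 to 169 FPKM in WT. Of 5 neutrophil markers 4 were tested and limma called 0 (0 also at an unadjusted p under 0.05), with sums of 4.08 to 8.82 FPKM in KO and 4.99 to 10.5 FPKM in WT and Ly6g at 0 in some libraries. Stellate markers summed to 104 to 121 FPKM in KO and 113 to 147 FPKM in WT, the highest in WT 5. Most of that sum was Dcn, which averaged 94.1 FPKM in KO and 106 FPKM in WT. Reln was lower in KO among 6, and the others were not called. By point estimate Dcn, Des and Lrat were lower (log2 differences -0.17, -0.13 and -0.02), and Col1a1 and Pdgfrb were higher (0.16 and 0.02). Sox9 of 4 tested cholangiocyte markers was lower in KO. The other tested markers were not called, with log2 differences of 0.03 for Epcam, 0.10 for Krt19 and -0.22 for Spp1. Sums over 5 markers were 13.1 to 18.2 FPKM in KO and 14.8 to 19.9 FPKM in WT. Alas2 of 5 erythroid markers was higher in KO. The other 4 went the other way and were not called (log2 differences -0.35 for Hba-a1, -0.30 for Hba-a2, -0.27 for Hbb-bs and -0.34 for Hbb-bt). The 5 markers summed to 338 to 576 FPKM in KO and 385 to 699.8 FPKM in WT. Of 6 lymphocyte markers 4 were tested and limma called 0, with 1 below an unadjusted p of 0.05 and sums of 3.25 to 5.19 FPKM in KO and 3.88 to 5.54 FPKM in WT, and Cd8a was at 0 in some libraries. Cps1 of the 6 hepatocyte markers was higher in KO, and the others were not called. By point estimate Alb, Apoa1 and Ttr were higher, and Hnf4a and Serpina1c were lower (log2 differences -0.30 and -0.22, limma adjusted p = 0.12 and 0.11). The part of any of these cells in the members' levels was not tested.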

How the data were processed

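The authors deposited FPKM per gene and library, to 2 decimals. The submitters' processing notes name mm10, STAR, RSEM, DESeq, DESeq2 and R 4.0.2, and give no role for any of them. The annotation release and the strand setting are not given in the sources used here. Positions came from GENCODE (GRCm38, the assembly of mm10). Spans and exon overlaps were taken over all transcripts of a gene, so an overlap need not involve its principal transcript. The members and gene lists were chosen with earlier results of these data known.

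FPKM is not a count, so log2(FPKM + 0.5) was fitted in R 4.3.3 using limma 3.58.1 (robust eBayes with a trend; two-sided; no covariate beside genotype) for the 12247 genes that averaged 0.5 FPKM or more, with Benjamini-Hochberg adjustment over all of them. Unequal spread was tested in the same way on absolute deviations from the genotype mean. Both fits were tested on simulated data, where the fit of spread recovered no gene of unequal spread, so spread is mainly described. Lists were described by counts and medians.

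Fragments per library were estimated from 374 to 426 short, low genes, of whose values 95.2% to 97.5% lay within 0.15 of a whole number of fragments. Counting error alone is larger for Fosb, Fos and Ier3 than for the rest.

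By rule, named genes were the 10 members, Etnppl, called genes of each list and the 5 genes most like the members. Nr4a1 and the genes most like Egr1 or Btg2 were named after their values were seen, and Junos, Prdx2, Ergic1 and Gm44710 because they overlap members. Alternatives were pseudocounts of 0.1 and 1, no filter or a mean of at least 5 FPKM, 3 scalings, a non-robust fit, library weights, a replicate block, deviations from the median, Spearman correlation and each library left out. Python 3.11.15 and matplotlib 3.10.9 made the figures.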

Additional observations from a re-analysis of the deposited data

Results flagged for a closer look

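Among 32 groups of 5 libraries (the 10 members, Etnppl and the 5 called genes of the pathway lists, in each genotype), 4 held 1 library far from the other 4. Chance would give about 1.6 for independent groups of normally distributed values. Members share high libraries and Fosb was near the floor, so no excess over chance can be read from this count. Fosb was at 0.48 FPKM in KO 4 against 0.03 to 0.06 FPKM in the other KO libraries, and at 0.93 FPKM in WT 3 against 0 to 0.11 FPKM in the other WT libraries. Egr1 was at 30.03 FPKM in KO 3 against 10.85 to 15.21 FPKM in the other KO libraries. Jun was at 18.03 FPKM in WT 3 against 8.84 to 11.33 FPKM. Among the 5 genes most like the members, Nt5dc2 was at 6.63 FPKM in WT 5 against 3.65 to 4.46 FPKM; these genes were picked for a profile that is highest in WT 5, so this value restates that choice. The 110.74 FPKM of Egr1 in WT 5 was not among these, because WT 4 lay between it and the other WT libraries.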

How the results depend on the processing

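The count of members called was 0 in 20 of 21 alternatives and 1 without WT 2. The members' directions held in all alternatives except Zfp36 (-0.2811 to 0.0502 without 1 library, above 0 at 0.0244 without WT 4 and 0.0502 without WT 5) and Ier3, at 0.0093 without WT 3 and WT 5 together, a setting chosen after the data were seen. Leaving out 1 library gave 0 to 1 members called, 0 members of unequal spread and 0 to 2 correlated pairs. The 0 for spread says little, since that fit recovered no gene of unequal spread on simulated data. Pairs numbered 0 after median-of-ratios, upper-quartile or quantile scaling, with Spearman correlation, and without WT 3 and WT 5. That last setting leaves so few arrangements that a lone pair cannot pass after adjustment, so its 0 says little. There r was 0.89 for Egr1 and Junb, 0.85 for Egr1 and Zfp36, 0.76 for Ier2 and Junb and 0.73 for Jun and Btg2. Over all genes, 488 higher and 558 lower became 294 and 370 with no filter, 230 and 321 with the replicate block, and 192 and 239 without WT 3 and WT 5, and ranged from 258 to 454 and from 316 to 541 without 1 library. Genes of unequal spread, 12, became 1762 with no filter, 0 at a mean of at least 5 FPKM or with deviations from the median, 1 with a non-robust fit, 33 on log2 deviations, and 3 to 6 without 1 library. The cause of these shifts was not tested.

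Same-numbered KO and WT libraries had correlations of deviations from -0.21 to 0.21, and the block called no member. Libraries of unlike number were not compared, so these values cannot decide whether the replicate numbers pair the libraries. Id3 lost its call without WT 3 and WT 5 (limma adjusted p = 0.061), as did Igfbp1 (0.10), and Arntl with the block (limma adjusted p = 0.064). Nfil3 lost it in 9 of 21 alternatives (limma adjusted p up to 0.14).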
